A study of Mus musculus with 6 samples.

Results

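Homeobox genes encode transcription factors that bind DNA through a homeodomain, and outside the Hox clusters they fall into families that pattern the body. The TALE class (Irx, Meis, Pbx) includes the cofactors with which Hox proteins bind DNA. LIM, Antennapedia-class (Nkx, Dlx, Emx, Gbx, En, Meox, Barx), sine oculis (such as Six2 and Six4) and paired-class (Pax, Pitx, Prrx, Alx) genes mark regions of the neural plate, the head, mesoderm derivatives and organ rudiments. Pax1 and Pax9 belong to the Pax family by their paired domain and lack a homeodomain.

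The 72 members were the rows of a deposited gene table of 36699 rows whose symbol was Lmx1a, Lmx1b, En1, En2, a numbered sine oculis-class gene (such as Six2) or Pax, Lhx, Nkx, Dlx, Irx, Meis, Pbx, Emx, Gbx, Pitx, Prrx, Meox, Alx or Barx with a number. Expression was measured in mouse A2Lox.cre embryonic stem (ES) cells, a line with a doxycycline-responsive site for inducible transgenes, on day 3 of embryoid body culture. The group with doxycycline (3 libraries) carried Flag-tagged Sp5 and received the drug for 24 hours from day 2 to express it, and the group without doxycycline (3 libraries) was the same inducible culture left untreated. Sp5 is a zinc-finger factor of the Sp family and a known target of Wnt signalling, and the comparison asked which genes it regulates. The ES cells had been expanded on feeder layers of primary mouse embryonic fibroblasts, which were removed before aggregation. No values of cells that got the drug but lack the transgene were analysed here, and the effects of drug and transgene cannot be told apart.

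Each gene has 1 FPKM value per group (fragments scaled to transcript length and library size), in which the authors combined the 3 libraries. These values carry no SD and no n. Variation among the libraries is accounted for only inside the authors' Cuffdiff test. A gene "rose" or "fell" below when its q was under 0.05 in the authors' deposited table, and the direction is that of the cells with doxycycline. Sp5 itself stood at 126 FPKM with doxycycline and 0.769 FPKM without (164-fold; its q in the authors' deposited table is listed as 0). A q listed as 0 is below the smallest value that the table prints. In such bulk samples, a change in the number of cells of a type and a change in RNA per cell cannot be told apart.

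Of the 72 members, 56 were tested. Among these the authors' deposited table called 22 higher and 4 lower, and 30 were not called. Over all 18537 tested rows, 10.5% rose and 12.7% fell (23.2% called in either direction), against 39.3% and 7.14% of the tested members. At 2-fold or more, 18 members rose and 3 fell, against 3.53% and 2.22% of all tested rows. At 1 FPKM or more in the group with the higher value, 10 of 22 members rose and 4 fell, against 11.5% and 16.8% of the 12326 tested rows at that level (28.3% in either direction). The 16 members not tested had the status NOTEST and reached at most 0.0632 FPKM in either group, and 1 of them (Pax4) was listed at 0 in both. A low gene can reach the test through the group in which it is higher alone, so the 56 tested members are not a neutral sample of the 72.

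The changes were large and most of the genes were low. The median rise was 5.13-fold, with a range of 1.53-fold to 12.1-fold. On the log2 scale it was 2.36, against 0.69 over all rows that rose. These 2 medians are not matched for expression level. In the higher group the median value was 0.455 FPKM for tested members and 3.67 FPKM for all tested rows. Of the 22 genes that rose, 20 stood under 1 FPKM without doxycycline and 12 stayed under 1 FPKM in both groups. The median log2 ratio over the 56 tested members was 0.73, against -0.03 over all tested rows. With a pseudocount of 0.1 FPKM the members' median was 0.46, and with 1 FPKM it was 0.12.

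**Figure D1:**
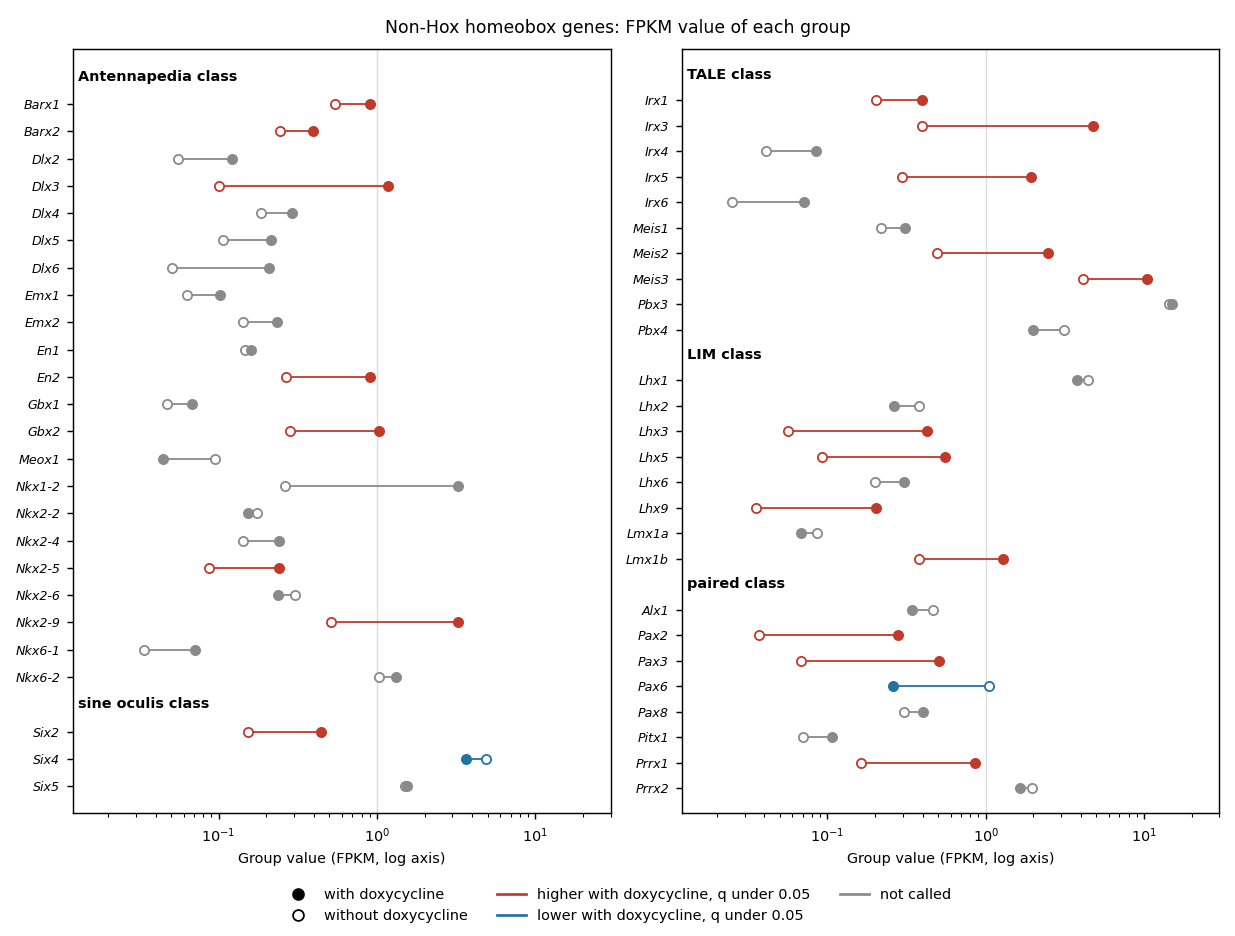
Group values in FPKM (log axis) of 51 of the 56 tested genes, with doxycycline as filled points and without as open points, 1 value per group and no error. Red lines mark 20 genes that rose, blue lines 2 that fell and grey lines 29 not called in the authors' table. Most red lines start under 1 FPKM, and the genes drawn with the highest values are Pbx3 and Meis3.

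The share of calls was set beside that of other rows at the same level. In the band of 0.3 to under 1 FPKM in the higher group, 9 of 15 members rose (60%), against 319 of 2784 tested rows (11.5%). Between 1 and 10 FPKM, 8 of 18 members rose (44.4%), against 870 of 6082 rows (14.3%). In that band 3 of 18 members fell (16.7%), against 927 of 6082 rows (15.2%). Under 0.3 FPKM, 3 of 19 members rose (15.8%), against 216 of 3427 rows (6.3%). At 10 FPKM or more, 2 of 4 members rose (50%), Meis3 among them, 1 fell (25%) and Pbx3 was not called, against 8.71% of 6244 rows that rose and 18.3% that fell. The bands are a description, with no test of the members as a set.

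**Figure D2:**
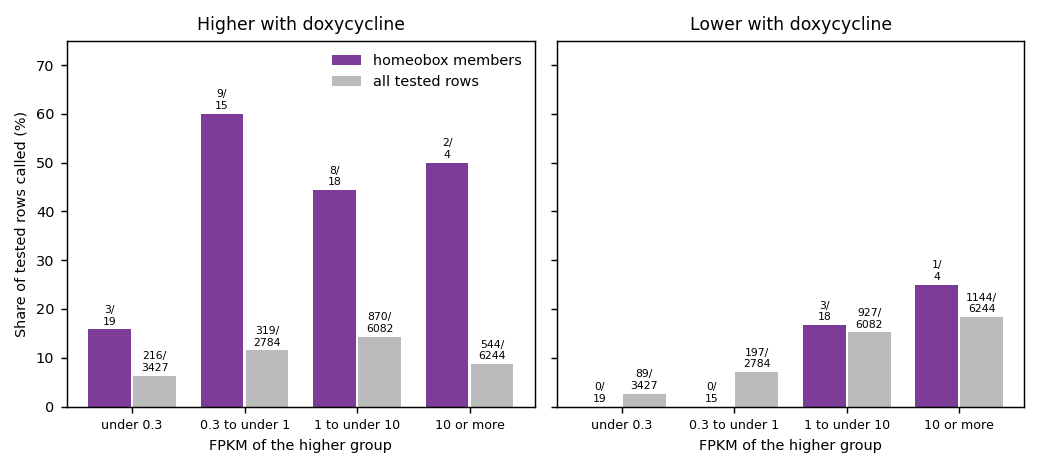
Share of tested rows called higher (left) or lower (right) with doxycycline, in bands of FPKM in the higher group, for the homeobox members (purple) and all tested rows (grey). The fractions give called over tested rows. In the band of 0.3 to under 1 FPKM 60% of members and 11.5% of all tested rows were higher.

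Iroquois (Irx) genes, which pattern the neural plate and the heart, had the largest rise among called members. Irx3 stood at 4.77 FPKM with doxycycline and 0.395 FPKM without (12.1-fold, log2 ratio 3.59, q in the authors' deposited table listed as 0; chromosome 8, 94322424 to 94331438 of mm9). Irx5, its neighbour in the same cluster, stood at 1.93 FPKM with doxycycline and 0.296 FPKM without (6.53-fold, q listed as 0; chromosome 8, 94881695 to 94885353). Irx1, of the other Iroquois cluster, rose 1.94-fold and stayed low, at 0.397 FPKM with doxycycline and 0.204 FPKM without (q = 0.000527). Irx4 (0.0851 and 0.0412 FPKM, with and without doxycycline) and Irx6 (0.0711 and 0.0249 FPKM) were not called. The 5 Irx rows summed to 7.26 FPKM with doxycycline and 0.962 FPKM without. Among all rows at 1 FPKM or more that rose, Irx3 ranked 20th by fold and Dlx3 21st. They are among the 35 such rows that rose at least 8-fold (0.284% of 12326 tested rows at that level).

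Meis and Pbx genes encode partner proteins of each other and of Hox proteins, and 2 Meis genes rose. Meis3 stood at 10.4 FPKM with doxycycline and 4.14 FPKM without (2.53-fold, q in the authors' deposited table listed as 0; chromosome 7, 16760439 to 16771859 of mm9). Meis2 stood at 2.48 FPKM with doxycycline and 0.492 FPKM without (5.04-fold, q listed as 0; chromosome 2, 115688800 to 115891575). Meis1 was not called, at 0.308 FPKM with doxycycline and 0.217 FPKM without (q = 0.477). The Meis rows together came to 13.2 FPKM with doxycycline and 4.84 FPKM without. Pbx3 was the highest member of all and differed little between the groups, at 15.1 FPKM with doxycycline and 14.3 FPKM without (q = 0.696). Pbx4 was at 2.00 FPKM with doxycycline and 3.13 FPKM without and was not called (q = 0.12). Pbx2 was listed only in a row together with Gpsm3, which fell to 13.4 FPKM with doxycycline, against 22.8 FPKM without (q = 8.81e-13), and that row does not separate the 2 genes.

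In the Antennapedia class, 7 of 23 tested members rose and none fell in the authors' deposited Cuffdiff table (1 was lower at an unadjusted p under 0.05, Meox1). Over all tested rows 10.5% rose and 12.7% fell. Nkx2-9, a gene of the ventral neural tube, stood at 3.23 FPKM with doxycycline and 0.516 FPKM without (6.27-fold, q listed as 0; chromosome 12, 57712376 to 57714271 of mm9). Dlx3, which acts in placenta and surface ectoderm, stood at 1.17 FPKM with doxycycline and 0.101 FPKM without (11.6-fold, q listed as 0; chromosome 11, 94981403 to 94986610). The other 4 tested Dlx genes were also higher with doxycycline, at 0.121 to 0.291 FPKM against 0.0507 to 0.185 FPKM without, and were not called. Of these, Dlx5 lay closest to the threshold (0.214 FPKM with doxycycline and 0.107 FPKM without, q = 0.0545).

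Gbx2 and En2 act at the midbrain-hindbrain boundary, and Gbx2 is also a gene of naive pluripotent cells. Gbx2 stood at 1.03 FPKM with doxycycline and 0.283 FPKM without (3.65-fold, q in the authors' deposited table listed as 0; chromosome 1, 91824537 to 91829865). En2 stood at 0.909 FPKM with doxycycline and 0.266 FPKM without (3.41-fold, q listed as 0). Their paralogues Gbx1 (0.0677 and 0.0470 FPKM, with and without doxycycline) and En1 (0.160 and 0.146 FPKM) were not called. Nkx2-5, a cardiac factor, rose 2.76-fold to 0.240 FPKM, against 0.0870 FPKM without (q = 0.00192). Barx1, a gene of stomach mesenchyme, rose 1.66-fold to 0.909 FPKM, against 0.546 FPKM without (q = 0.00351). Barx2 rose 1.63-fold to 0.397 FPKM, against 0.244 FPKM without (q = 0.0244).

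The largest ratio of any tested member was not called. Nkx1-2, a gene of the caudal epiblast, stood at 3.26 FPKM with doxycycline and 0.264 FPKM without (12.3-fold, log2 ratio 3.63, q = 0.43 in the authors' deposited table). Its row was assigned to a merged locus of 3.01 Mb on chromosome 7, which it shared with 40 other rows. None of the 26 tested rows among those 40 was called, the lowest q being 0.122 (1 had an unadjusted Cuffdiff p under 0.05), against 23.2% of all tested rows. Nkx6-2 was at 1.32 FPKM with doxycycline and 1.03 FPKM without and was not called (q = 0.392). Nkx2-2 (0.154 and 0.173 FPKM, with and without doxycycline) and Nkx6-1 (0.0706 and 0.0336 FPKM), which specify ventral neural progenitors, were not called. Nkx2-1, of the forebrain, thyroid and lung, was not tested, at 0.0326 FPKM with doxycycline and 0.00639 FPKM without.

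Of 8 tested LIM-homeobox genes, 4 rose and 4 were not called, against 10.5% of all tested rows that rose. Lhx1, a gene of the organizer and axial mesendoderm, was the highest of them and was not called, at 3.78 FPKM with doxycycline and 4.40 FPKM without (q = 0.209 in the authors' deposited table). Lmx1b, of the dorsal limb and the midbrain, stood at 1.29 FPKM with doxycycline and 0.381 FPKM without (3.40-fold, q = 1.52e-14; chromosome 2, 33416485 to 33496031 of mm9). Lhx5, a forebrain gene, stood at 0.552 FPKM with doxycycline and 0.0921 FPKM without (5.99-fold, q listed as 0). Lhx3, of pituitary and motor neurons, stood at 0.425 FPKM with doxycycline and 0.0567 FPKM without (7.48-fold, q = 1.31e-08). Lhx9, of the gonad, stood at 0.204 FPKM with doxycycline and 0.0352 FPKM without (5.81-fold, q = 0.00312), the lowest level of any called member. Lhx2 (0.262 and 0.378 FPKM, with and without doxycycline), Lhx6 (0.305 and 0.199 FPKM) and Lmx1a (0.0680 and 0.0862 FPKM) were not called. No LIM gene fell (0 lower at an unadjusted p under 0.05 in Cuffdiff), against 12.7% of all tested rows.

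Paired-class genes gave 5 rises and 1 fall among 10 tested, against 10.5% and 12.7% of all tested rows. Prrx1, of limb and head mesenchyme, rose 5.22-fold to 0.852 FPKM, against 0.163 FPKM without (q = 4.36e-14 in the authors' deposited table). Its paralogue Prrx2 was not called, at 1.64 FPKM with doxycycline and 1.98 FPKM without (q = 0.626). Alx1, a gene of head mesenchyme, was at 0.344 FPKM with doxycycline and 0.466 FPKM without and was not called (q = 0.225).

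Pax genes went both ways. Pax6, the factor of eye and forebrain, fell to 0.260 FPKM with doxycycline, against 1.05 FPKM without (4.04-fold lower, log2 ratio -2.01, q = 0.003 in the authors' deposited table; chromosome 2). Its merged locus of 368 kb also holds Elp4, which stood at 9.21 FPKM with doxycycline and 10.5 FPKM without and was not called. Pax3, of the dorsal neural tube, neural crest and muscle precursors, stood at 0.504 FPKM with doxycycline and 0.0680 FPKM without (7.41-fold, q = 6.72e-10). Pax2, of kidney and the midbrain-hindbrain boundary, stood at 0.279 FPKM with doxycycline and 0.0372 FPKM without (7.50-fold, q = 3.25e-05). Pax8, the relative of Pax2 in kidney and thyroid, was not called, at 0.403 FPKM with doxycycline and 0.303 FPKM without (q = 0.563). The 5 other Pax rows were too low to be tested.

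Sine oculis-class genes, which act with Eya proteins in muscle, kidney and sensory placodes, were the class with more falls than rises (2 of 4 tested fell and 1 rose, against 12.7% and 10.5% of all tested rows). Six4 stood at 3.65 FPKM with doxycycline and 4.89 FPKM without (1.34-fold lower, q = 6.34e-05 in the authors' deposited table; chromosome 12, 74200596 to 74215024 of mm9). Six2, a gene of kidney progenitors, rose 2.88-fold to 0.444 FPKM, against 0.154 FPKM without (q = 0.000172). Six5 was not called, at 1.54 FPKM with doxycycline and 1.51 FPKM without (q = 0.94).

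**Figure D3:**
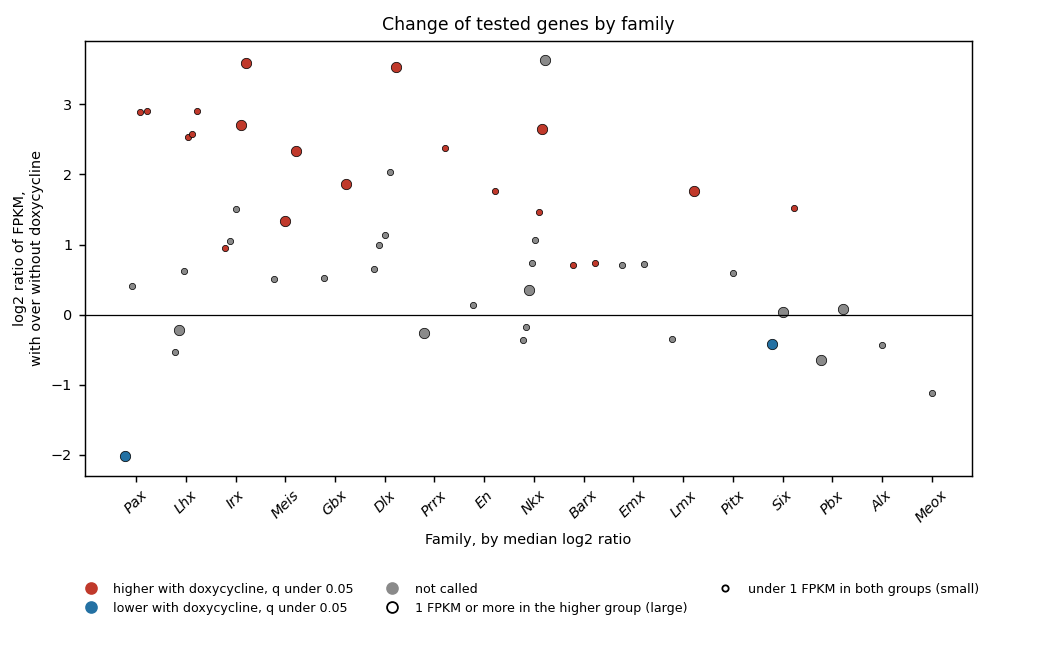
Log2 ratio of the group values, with over without doxycycline, of the same 51 tested genes, in families ordered by their median. Red points rose, blue points fell and grey points were not called, and large points reached 1 FPKM in the higher group. All 5 tested Irx and all 5 tested Dlx genes lie above 0, and the blue points are Pax6 and Six4.

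By position, 24 members lay in 10 clusters of genes less than 1 Mb apart, with 6 clusters holding a called gene. Only 2 of the 10 held more than 1 called gene, and neither held both a rise and a fall. In the cluster of Irx3, Irx5 and Irx6 (882 kb on chromosome 8) 2 genes rose in the authors' deposited table. In the cluster of Nkx2-1, Nkx2-9 and Pax9 (666 kb on chromosome 12) Nkx2-9 rose, while Nkx2-1 and Pax9, at 0.0621 FPKM with doxycycline and 0.0466 FPKM without, were too low to be tested. The clusters of Dlx1 and Dlx2, of Dlx5 and Dlx6, and of Nkx2-2, Nkx2-4 and Pax1 held no called member.

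Transcripts next to the genes that rose were examined, since several homeobox genes have an adjacent non-coding transcript. Rows at the same locus or within 10 kb numbered 15, of which 8 were tested and 5 rose in the authors' deposited table. Without D130058E05Rik, a RefSeq synonym of Gbx2, 4 of 7 rose. Beside members not called, leaving out the merged locus of Nkx1-2, 4 of 22 tested rows rose, against 10.5% of all tested rows. The 22 include Dlx5 and Dlx6, themselves members not called and each the neighbour of the other. C130021I20Rik, annotated by RefSeq as a long non-coding RNA and 681 bases from Lmx1b, stood at 1.40 FPKM with doxycycline and 0.219 FPKM without (6.39-fold, q = 7.72e-15). 4933436C20Rik, named Crnde in RefSeq and a long non-coding RNA next to Irx5, stood at 0.918 FPKM with doxycycline and 0.378 FPKM without (2.43-fold, q = 1.48e-06). D230002A01Rik, at the locus of Irx3, stood at 0.275 FPKM with doxycycline and 0.0286 FPKM without (q = 0.0154), and 2700033N17Rik, 378 bases from Meis2, at 0.502 FPKM with doxycycline and 0.225 FPKM without (q = 0.0199). D130058E05Rik, at the locus of Gbx2, stood at 1.21 FPKM with doxycycline and 0.373 FPKM without (q = 1.22e-07). The library protocol mentions no step that marks strand, so the reads of rows at 1 locus may not be separable. The other 3 tested rows were not called, among them the protein-coding genes Qsox2 next to Lhx3, with a ratio of 1.05, and 2310009B15Rik next to Lhx9, with a ratio of 1.01.

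**Figure D4:**
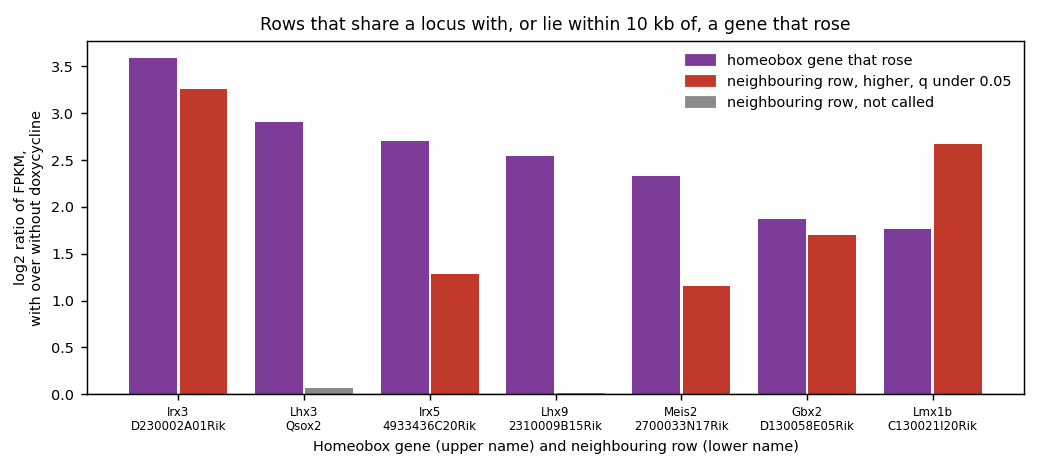
Log2 ratio of the group values, with over without doxycycline, of 7 homeobox genes that rose (purple) and of the tested rows at the same locus or within 10 kb (red where it rose, grey where it was not called). The red bars lie between 1.16 and 3.26, and the 2 grey bars are at 0.02 and 0.07.

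Promoters were read because Sp factors bind GC boxes (GGGCGG) and the related CACCC box, and Tcf and Lef factors of the Wnt pathway bind sites that often contain CTTTGA. RefSeq promoters (GRCm38.p6, 250 bases before the annotated start) were found for 47 of the 72 members, 55 promoters in all, and were searched on both strands. Below are those of 3 genes that rose (Nkx2-9, Irx3 and Gbx2) and of 1 that fell (Six4), shown because they range over 4, 0, 1 and 1 GC boxes. Capitals mark GGGCGG and CACCC on either strand, which overlap in places.
Nkx2-9 (rose; chr12:56613285-56613534, minus strand): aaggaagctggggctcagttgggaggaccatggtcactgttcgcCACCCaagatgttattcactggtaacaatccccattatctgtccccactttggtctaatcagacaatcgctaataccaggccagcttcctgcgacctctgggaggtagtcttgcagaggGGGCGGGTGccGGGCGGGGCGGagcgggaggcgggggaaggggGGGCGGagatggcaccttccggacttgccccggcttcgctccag
Irx3 (rose; chr8:91801655-91801904, minus strand): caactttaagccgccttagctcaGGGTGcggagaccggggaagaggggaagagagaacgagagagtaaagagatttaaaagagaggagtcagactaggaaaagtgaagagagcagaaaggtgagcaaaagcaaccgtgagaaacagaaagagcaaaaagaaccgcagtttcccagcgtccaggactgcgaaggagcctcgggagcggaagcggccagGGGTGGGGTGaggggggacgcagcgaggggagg
Gbx2 (rose; chr1:89931177-89931426, minus strand): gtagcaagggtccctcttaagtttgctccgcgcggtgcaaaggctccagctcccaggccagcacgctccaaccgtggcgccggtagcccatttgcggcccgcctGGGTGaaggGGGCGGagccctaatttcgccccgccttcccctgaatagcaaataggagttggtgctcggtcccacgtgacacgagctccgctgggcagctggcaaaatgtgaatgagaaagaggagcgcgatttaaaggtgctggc
Six4 (fell; chr12:73113246-73113495, minus strand): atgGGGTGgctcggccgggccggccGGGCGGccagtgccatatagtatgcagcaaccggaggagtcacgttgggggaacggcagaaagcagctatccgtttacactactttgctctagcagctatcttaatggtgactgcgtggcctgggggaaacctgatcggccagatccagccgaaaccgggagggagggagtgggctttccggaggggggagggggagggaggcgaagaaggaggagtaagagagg

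A GC box stood in 8 of 16 promoters of genes that rose (50%), in 2 of 4 promoters of genes that fell, in 14 of 22 promoters of members not called (63.6%) and in 10 of 13 promoters of members too low to be tested (76.9%). The 16 promoters belong to 13 of the 22 genes that rose, so some genes count more than once. The 4 promoters of genes that fell are those of Pax6 and Six4, and both matches lie in promoters of Six4. Over the 13559 promoters of all tested genes of the table the share was 54.7%, and over all 32841 promoters 32.7%. A CACCC box stood in 62.5% of the promoters of genes that rose, 54.5% of those not called and 59.0% of those of all tested genes. CTTTGA stood in 2 of the 16 promoters of genes that rose, those of Meis2 and Nkx2-5, against 10.8% of promoters of all tested genes. Median GC content was 61.6% for promoters of genes that rose, 65% for members not called and 62.8% for members not tested. For promoters of all tested genes it was 59.2%. Motif matches describe these windows only.

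Genes that work with these families were counted from lists of LIM cofactors, partners of the sine oculis class (Eya, Dach), TALE partners and Groucho corepressors. By the authors' deposited table, 9 of 28 tested partners rose, 2 fell and 17 were not called, against 10.5% and 12.7% of all tested rows. Ldb1, the scaffold of LIM-homeodomain complexes, rose to 94.4 FPKM with doxycycline, against 59.7 FPKM without (1.58-fold, q = 3.77e-11). Lmo4, a LIM-only protein that competes for Ldb1, fell to 9.99 FPKM with doxycycline, against 18.5 FPKM without (1.85-fold lower, q listed as 0). Lmo1 rose 2.24-fold, to 1.20 FPKM with doxycycline, against 0.537 FPKM without. The Ldb1-binding proteins Ssbp4 and Ssbp2 parted, with Ssbp4 at 19.0 FPKM with doxycycline and 14.5 FPKM without (rose) and Ssbp2 at 10.6 FPKM with doxycycline and 14.4 FPKM without (fell).

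Eya1, a coactivator of sine oculis-class proteins, rose 5.48-fold, to 1.25 FPKM with doxycycline, against 0.229 FPKM without (q in the authors' deposited table listed as 0). Among TALE partners, Pknox2 rose 5.56-fold to 1.18 FPKM, against 0.212 FPKM without, and Tgif2 rose 1.21-fold to 22.8 FPKM, against 18.9 FPKM without. The Groucho genes Tle1 (1.46-fold, to 10.8 FPKM with doxycycline) and Tle3 (1.33-fold, to 21.4 FPKM) rose as well. Of the 11 partner calls, 4 were at least 2-fold.

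Other homeobox genes that the symbol rule does not take in were set beside the members. Of 60 listed, 39 were tested, and of these 7 rose, 7 fell and 25 were not called by the authors' deposited table (17.9% in each direction), against 10.5% and 12.7% of all tested rows. At 1 FPKM or more, 1 of 13 rose and 5 fell, against 11.5% and 16.8% of all tested rows at that level. The 60 do not cover every such gene, as some homeobox genes were counted in the partner and marker lists instead. There Evx1 (9.01 FPKM with doxycycline and 0.119 FPKM without), Mixl1, Gsc, Nanog, Pknox2 and Tgif2 rose. Pknox1, Tgif1, Mkx and Pou5f1, also in those lists, were not called. Vax2, of the ventral eye, rose to 1.93 FPKM with doxycycline, against 0.179 FPKM without (10.8-fold). Otx2, of epiblast and forebrain, fell 1.60-fold, to 70.0 FPKM with doxycycline, against 112 FPKM without. Hopx fell 3.13-fold, to 2.41 FPKM with doxycycline, against 7.57 FPKM without. Homez, Hmbox1 and Satb1 fell 1.55-fold, 1.51-fold and 1.28-fold.

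Marker lists of the cells that a day 3 culture could hold were read beside these values. For scale, 10.5% of all tested rows rose and 12.7% fell, and at 1 FPKM or more 11.5% and 16.8% did. Pou5f1 (1058 FPKM with doxycycline and 999 FPKM without) and Sox2 (60.6 and 60.8 FPKM) define pluripotent cells and were not called. Of 9 tested ES cell and epiblast markers, 3 rose and 3 fell (sum 1649 FPKM with doxycycline and 1736 FPKM without). Nanog (2.54-fold), Tdgf1 (1.46-fold) and Zfp42 (1.15-fold) rose, and Fgf5 (3.17-fold lower), Utf1 (2.64-fold lower) and Otx2 fell. Primitive streak and mesoderm markers rose in 9 of 12 tested, with a summed level of 185 FPKM with doxycycline and 38.1 FPKM without, of which T (Brachyury) gave 103 and 0.745 FPKM. Of 8 tested neural markers, 2 rose and 4 fell (sum 52.0 FPKM with doxycycline and 61.7 FPKM without), Nes, Stmn4, Fabp7 and Hes5 being those that fell. Of 11 tested visceral endoderm markers, 6 fell and none rose, also at an unadjusted Cuffdiff p under 0.05 (sum 146 FPKM with doxycycline and 182 FPKM without).

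Of 16 tested fibroblast markers, 3 rose and 6 fell in the authors' deposited table, against 10.5% and 12.7% of all tested rows. The 16 summed to 68.0 FPKM with doxycycline and 97.8 FPKM without. Most of the difference between the sums lay in 2 of the 6 that fell. Tagln gave 36.5 FPKM with doxycycline and 56.9 FPKM without, and Acta2 gave 9.92 and 18.9 FPKM. Col1a1 rose 3.99-fold, to 4.43 FPKM with doxycycline, while Dcn fell to 1.39 FPKM with doxycycline, against 2.08 FPKM without. Prrx1, which fibroblasts also express, rose as given above. No marker with a row in the 5 lists was listed at 0 except Dnmt3b. Dnmt3b was listed at 273 FPKM with doxycycline and 0 without, with the status HIDATA. Cuffdiff gave no test for that row, so its 0 is not read here as absence of expression. The part of these cell types in the homeobox changes was not tested.

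The 26 calls rest on the authors' test alone. With Bonferroni adjustment over all tested rows 16 remained called, 15 higher and 1 lower. Pax6 lies at a locus that the table also gives to other rows, and without such members 2 were lower.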

How the data were processed

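Poly(A)-selected RNA of 6 libraries (TruSeq, oligo-dT capture, per the labels' protocols) was compared in 2 groups of 3. The authors aligned and compared them on mm9 with tools listed as Bowtie, TopHat2 2.0.8, Cufflinks 2.0.2, Cuffdiff and Picard, per the submitters' processing notes. Annotation, library scaling and filters: not given in the sources used here. The table holds the FPKM value of each group, the log2 fold change, a test score (not used) and the p-value and q-value of the comparison, as the authors deposited them and per the file headers. Values per library were not analysed here, so the authors' q was the test, as the design provided for that case. Depth is unknown because no counts are in the table, so values have neither a counting interval nor a floor. The labels do not say whether replicates came from separate cultures, so p-values may measure only technical spread.

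Ratios were computed from the group values without a pseudocount. They differed from the deposited log2 fold change by at most 1.31e-05. Benjamini-Hochberg adjustment over the 18537 tested rows (status OK) differed from the deposited q-values by at most 1.79e-06. Gene starts were read as 0-based and are printed from 1, because spans then equalled GENCODE vM21 lengths for 11721 of 28028 rows, against 318 otherwise. Called members and tested ones at 1 FPKM or more are named, except some whose values are not reported here; counts include them. Members and lists were chosen with earlier results of these data known. Functions were tested on simulated data. Python 3.11.15, numpy 2.4.6 and pandas 2.3.3 were used. Protein sequences were not used here.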

Additional observations from a re-analysis of the deposited data

How the results depend on the processing

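A pseudocount of 0.1 or 1 FPKM added to both group values cannot change which is larger, so it does not test direction. Centring on the median of tested rows at 1 FPKM or more moved ratios by little (median -0.04 on the log2 scale). The smallest change among the 26 called members was -0.42, for Six4, so all kept their direction by construction. The members' counts moved most under stricter rules. With a minimum of 1 FPKM in either group, 14 of 22 were called, 10 of them higher. With Bonferroni adjustment 16 were called and 1 was lower, and without members at a shared locus 2 were lower. At q under 0.01, 24 members were called, 21 higher and 3 lower, and Barx2 was among the calls lost. With a minimum fold of 2 there were 18 rises and 3 falls. The median log2 ratio of 0.73 was 0.46 with a pseudocount of 0.1 FPKM, 0.12 with 1 FPKM and 0.48 at 1 FPKM or more. Partner genes called numbered 4 with a minimum fold of 2. Other homeobox genes called numbered 6 with a minimum fold of 2 and 6 at 1 FPKM or more. These shifts follow from fewer genes, a stricter threshold or a larger constant. No paired analysis was possible because the table holds 1 value per group, and leaving out single replicates was not run for the same reason. The labels number the libraries 2, 3 and 4 without doxycycline and 1, 3 and 4 with it. Whether equal numbers mark paired cultures is not stated.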

Other observations

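Genes around the members were counted to see whether the rises extended along the chromosome. Tested rows other than members within 500 kb of the 22 genes that rose numbered 215, of which 22 rose (10.2%) and 30 fell (14%) in the authors' deposited table. Around the 30 members not called, 44 of 421 rows rose (10.5%) and 51 fell (12.1%). Over all tested rows 10.5% rose and 12.7% fell. Around the 4 members that fell, none of 29 rows rose and 8 fell (27.6%), and some of these windows overlap, so rows are counted more than once. Around Meis2 both tested rows rose, and around Irx5 2 of 5 did.

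Beside Pbx2, 3 homeobox genes were listed only in rows with a second identifier. Irx2 stood at 1.18 FPKM with doxycycline and 0.78 FPKM without (q = 0.333), Six3, of the forebrain, at 0.152 FPKM with doxycycline and 0.271 FPKM without (q = 0.136), and neither was called. Lhx8 was not tested, at 0.059 FPKM with doxycycline and 0.0501 FPKM without.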
